A study of Mus musculus with 44 samples.

Results

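The genes of oxidative phosphorylation were examined in RNA from the gastric corpus of mice that lack the beta subunit of the gastric proton pump and of wild-type mice. The members were chosen by symbol. They are the protein-coding genes whose names start with Nduf (but not Ndufaf), Uqcr, Cox4i, Cox5, Cox6, Cox7, Cox8 or Atp5, together with Sdha, Sdhb, Sdhc, Sdhd, Cyc1, Cycs and the protein-coding genes of the mitochondrial genome. This gave 100 of the 31484 genes in the deposited counts, of which 87 are nuclear and 13 mitochondrial. By complex, the nuclear genes comprise 36 of complex I, 4 of complex II, 9 of complex III, 20 of complex IV, 17 of complex V and cytochrome c itself. The mitochondrial genome contributes 7 genes of complex I, 1 of complex III, 3 of complex IV and 2 of complex V.

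The respiratory chain passes electrons from complex I or II through coenzyme Q, complex III and cytochrome c to oxygen at complex IV, and the protons it pumps drive ATP synthesis by complex V. Complexes I, III, IV and V are built from subunits of both genomes, while complex II and cytochrome c are wholly nuclear. The acid-secreting parietal cell of the gastric corpus is among the cells richest in mitochondria, since the H+/K+ATPase runs on ATP.

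The study compared the genotypes and asked what netazepide (NTZ), an antagonist of the gastrin receptor, changed in each. The 4 groups were H+/K+ATPase KO mice given NTZ (KO/NTZ, 11 libraries) or the vehicle polyethylene glycol (KO/PEG, 13 libraries), and WT mice given NTZ (WT/NTZ, 9 libraries) or vehicle (WT/PEG, 11 libraries). All mice were on a BALB/c background after back-crossing, were female by the study's methods and were 13 months old. NTZ or vehicle was injected subcutaneously at intervals over most of that life. KO mice were homozygous for the deletion, in all cells and not in 1 cell type. The targeted gene, Atp4b, was between 2139 and 5738 CPM in the WT libraries and between 2.28 and 40.6 CPM in the KO libraries. CPM are counts scaled by the total of the library and by its TMM normalization factor. The CPM of a library therefore do not add to a fixed total, and a CPM value is not a share of its counts. Each library held between 6065084 and 21945124 estimated counts, and values of at most 3 counts in a library were treated as under the floor, a limit that covers counting error only. The labels repeat 1 animal number within WT/PEG and another across the KO groups, and KO/PEG holds more libraries than the study's text counts mice in that group. Not every library need therefore be a separate animal, so n counts libraries and p-values measure the spread between libraries, which may in part be technical. In whole tissue, fewer cells of a type and less RNA per cell cannot be told apart.

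One property of the libraries must precede the results. For each library the log2 deviation of every gene from its mean was regressed on log10 gene length, and this length slope was between 0.258 and 1.16 in the 20 WT libraries but between -1.24 and -0.0983 in all KO libraries except KO/PEG 46. The slope of KO/PEG 46 was 0.550, inside the WT range. Short genes therefore took a larger part of the counts in KO libraries, and genotype and this length dependence cannot be told apart. Most nuclear genes of oxidative phosphorylation are short, so the counts of members by genotype, and the members described singly where the call changed, are given with the deposited counts and after the length trend of each library was removed. KO/PEG 46 stood apart for the members as well.

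The 13 mitochondrial genes held between 5.83% and 11.8% of the counts in WT/PEG libraries, with a median of 9.57%. WT/NTZ libraries had 5.83% to 11.6% (median 9.41%). KO/PEG libraries had 2.39% to 14.5% (median 4.86%) and KO/NTZ libraries 1.88% to 7.04% (median 3.81%). The highest of all 44 values was that of KO/PEG 46, and the other 12 KO/PEG libraries lay between 2.39% and 7.84%. The KO and WT ranges thus overlapped, with the KO medians below the lowest WT library. The 87 nuclear genes went the other way. Their share was taken of the counts outside the mitochondrial genes and outside copies of these in the nuclear genome. It was 1.68% to 2.33% in WT/PEG (median 1.84%) and 1.70% to 2.19% in WT/NTZ (median 1.95%). In KO/PEG this share was 1.98% to 3.71% (median 2.87%) and in KO/NTZ 2.64% to 3.55% (median 2.998%). Every KO/NTZ library was above every WT library in this share, while 3 of the 13 KO/PEG libraries lay below the highest WT library (2.33%), KO/PEG 46 at 1.98% and the others at 2.299% and 2.31%.

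**Figure D1:**
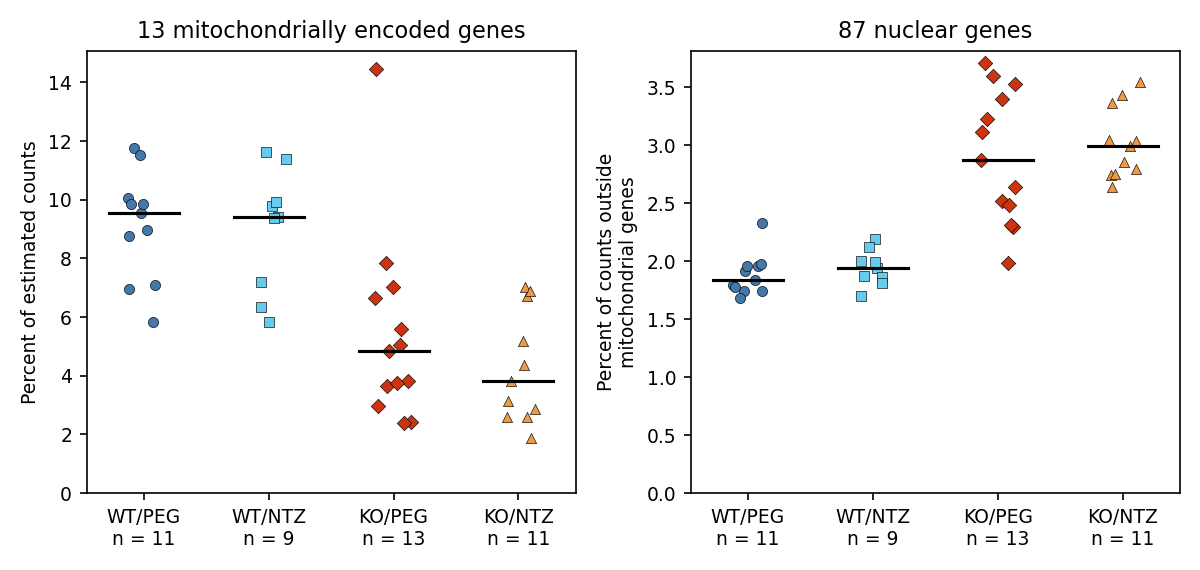
Percent of estimated counts held by the 13 mitochondrially encoded genes (left) and the 87 nuclear genes (right), for each library of the 4 groups. Black bars mark the group medians. The nuclear percent is of the counts outside the mitochondrial genes and their copies in the nuclear genome. The mitochondrial medians are 9.57% in WT/PEG and 4.86% in KO/PEG, and the nuclear medians are 1.84% and 2.87%.

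Both shares moved with the length slope inside the KO genotype, while inside WT only the mitochondrial share passed. Over the 24 KO libraries the mitochondrial share correlated with the slope (Pearson's r = 0.934, Spearman's rho = 0.934, permutation test, adjusted p = 3e-05 for each over 6 relations, raw p = 1e-05, the smallest that 100000 resamples can give). It was r = 0.925 without the 2 libraries farthest from the median slope, of which KO/PEG 46 is one, and r = 0.928 within KO/PEG and 0.971 within KO/NTZ. Over the 20 WT libraries it was weaker (r = 0.533, adjusted p = 0.032; rho = 0.550, adjusted p = 0.026; permutation test, raw p = 0.016 and 0.013). Within WT/PEG r was 0.836 and within WT/NTZ 0.349, and it was 0.589 without the 2 farthest WT libraries. The nuclear share fell as the slope rose in KO libraries (r = -0.900, rho = -0.872, permutation test, adjusted p = 3e-05 for each, raw p = 1e-05; r = -0.896 without the 2 farthest libraries, -0.921 within KO/PEG and -0.806 within KO/NTZ). In WT libraries this relation did not pass (r = -0.412, adjusted p = 0.108; rho = -0.418, adjusted p = 0.104; permutation test, raw p = 0.072 and 0.069; r = -0.431 without the 2 farthest, -0.549 within WT/PEG and -0.109 within WT/NTZ). A link between the nuclear share and the slope is partly built in, since short genes enter both. The part of the length dependence in the genotype differences was not tested.

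**Figure D2:**
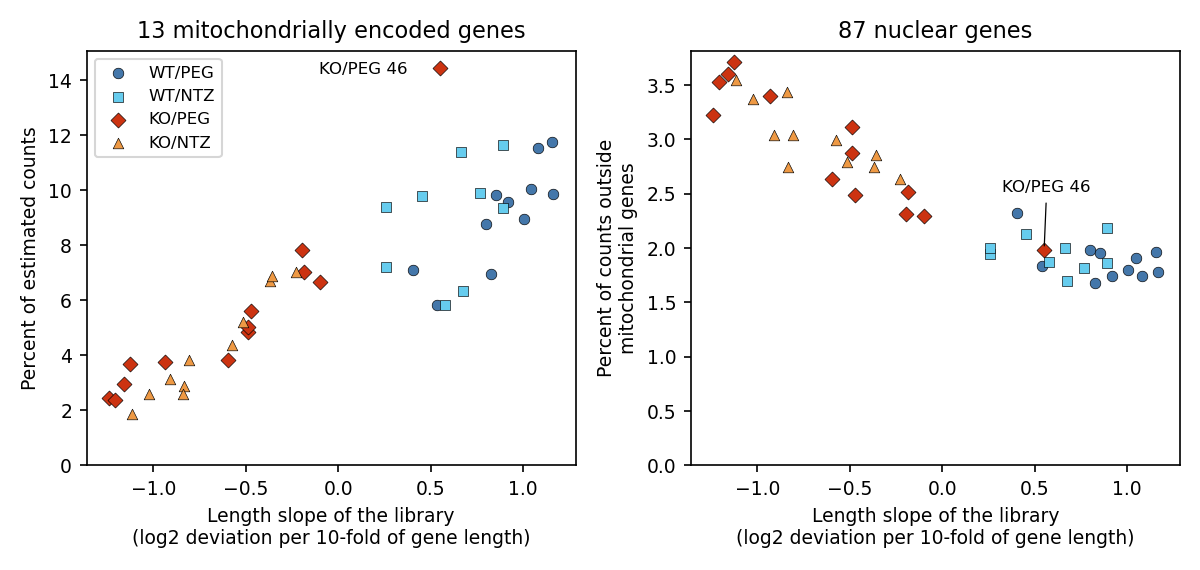
The same shares of the mitochondrial genes (left) and nuclear genes (right), in percent, against the length slope of each library, in log2 units per 10-fold of gene length, with 1 point for each of the 44 libraries coloured by group. In KO libraries the mitochondrial share rises with the slope (r = 0.934), the nuclear share falls (r = -0.900), and KO/PEG 46 lies at 14.5% with a slope inside the WT range.

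All 13 mitochondrial genes were tested and all were lower in KO/PEG than in WT/PEG, beside 37.2% of the 14901 genes tested (edgeR quasi-likelihood test with Benjamini-Hochberg adjustment, threshold 0.05). Their median log2 fold change was -1.16, where the median of all genes was -0.00. All 13 were also lower in KO/NTZ than in WT/NTZ (median -1.54), beside 36.8% of all genes. With the length trend removed, all 13 were again lower in KO/PEG (median -1.78, beside 31.7% of genes lower) and in KO/NTZ (beside 33% lower). With the length slope as a covariate instead, none was lower in KO/PEG, 5 were higher and the median was 0.25 (beside 16.3% of genes higher and 16.4% lower). That fit compares the genotypes at a common slope, which only KO/PEG 46 shares with the WT libraries. Without KO/PEG 46 and without any length term, all 13 were lower.

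The largest differences were found in the 2 shortest mitochondrial genes, mt-Atp8 and mt-Nd4l. Both overlap a longer neighbour on the same strand, and each is read from a messenger that also carries this neighbour. Their sequences from the mitochondrial chromosome of GRCm38 are shown because the overlap sets which reads can be told from those of the neighbour. Capitals mark the 43 bases that mt-Atp8 (chrM:7766-7969, plus strand) shares with mt-Atp6 and the 7 bases that mt-Nd4l (chrM:9877-10173, plus strand) shares with mt-Nd4.
mt-Atp8: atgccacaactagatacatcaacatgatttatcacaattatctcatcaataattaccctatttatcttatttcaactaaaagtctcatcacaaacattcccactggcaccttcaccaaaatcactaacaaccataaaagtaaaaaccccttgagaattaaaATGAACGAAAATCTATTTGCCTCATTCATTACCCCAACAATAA
mt-Nd4l: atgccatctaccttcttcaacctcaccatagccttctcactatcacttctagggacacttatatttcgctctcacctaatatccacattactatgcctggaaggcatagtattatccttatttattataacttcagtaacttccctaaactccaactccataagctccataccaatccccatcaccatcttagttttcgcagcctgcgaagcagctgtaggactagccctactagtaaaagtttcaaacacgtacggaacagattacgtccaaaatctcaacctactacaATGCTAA

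Complex V has its 2 mitochondrial subunits in the proton-conducting membrane part. mt-Atp8 ranged from 1763 to 3602 CPM in WT/PEG (median 2515) and from 30.5 to 2730 CPM in KO/PEG (median 177). In KO/NTZ it ranged from 27.7 to 698 CPM (median 61.7) and in WT/NTZ from 1427 to 3077 (median 2312). Apart from KO/PEG 46 at 2730 CPM, the KO/PEG libraries reached at most 1075 CPM and lay below every WT/PEG library. Its log2 fold change in KO/PEG was -2.52 ± 0.58 (SE, adjusted p = 0.000173, edgeR) and -3.31 without KO/PEG 46. mt-Atp6, carried by the same messenger, had a median of 5060 CPM in KO/PEG (3266 to 14724), and ranged from 9835 to 17354 CPM in WT/PEG. Its change was smaller at -1.16 ± 0.22 (adjusted p = 1.35e-05, edgeR), and 12 of the 13 KO/PEG libraries lay below every WT/PEG library.

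The 7 mitochondrial subunits of complex I form the membrane arm that pumps protons. mt-Nd4l had a median of 993 CPM in WT/PEG (617 to 1501) and 162 CPM in KO/PEG (29.4 to 1078). Its log2 fold change was -2.26 ± 0.43 (adjusted p = 1.41e-05, edgeR). The neighbour mt-Nd4 had a median of 2582 CPM in KO/PEG (1516 to 8493) against WT/PEG values of 4998 to 11170 CPM, and a change of -1.42 ± 0.22 (adjusted p = 3.06e-07, edgeR). In both genes KO/PEG 46 lay among the WT/PEG libraries and the other 12 below all of them. mt-Nd5 (-1.87) and mt-Nd2 (-1.82) fell by similar amounts, and mt-Nd1 (-1.02) and mt-Nd3 (-0.89) by less. mt-Nd6 is the only protein-coding gene on the minus strand and overlaps the end of mt-Nd5. It fell least among the complex I genes, by 0.65 on the log2 scale, with 6 of 13 KO/PEG libraries below every WT/PEG library (516 to 1498 CPM, median 897, against 892 to 1837 CPM, median 1439). Whether the counting used strand is not given in the sources used here, so reads of mt-Nd6 and of transcripts from the other strand may not be told apart.

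mt-Cytb, the mitochondrial subunit of complex III that binds coenzyme Q, ranged from 6224 to 12402 CPM in WT/PEG and from 3543 to 10909 CPM in KO/PEG. Without KO/PEG 46 the highest KO/PEG value was 6063 CPM, below every WT/PEG library. The log2 fold change was -0.83 ± 0.17 (adjusted p = 3.79e-05, edgeR).

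The 3 mitochondrial subunits of complex IV form its catalytic core. mt-Co1, the subunit that holds the site of oxygen reduction, had medians of 21583 CPM in WT/PEG (11824 to 26386) and 6780 CPM in KO/PEG (1687 to 20100). Its change was -1.51 ± 0.33 (adjusted p = 0.000101, edgeR), and -1.74 without KO/PEG 46, whose value was the 20100 CPM. mt-Co3 changed by -0.94 ± 0.26 (adjusted p = 0.00148). mt-Co2, which takes electrons from cytochrome c, had medians of 12475 CPM in WT/PEG (7903 to 15401) and 9809 CPM in KO/PEG (6399 to 14266). Only 2 of the 13 KO/PEG libraries lay below every WT/PEG library for mt-Co2, and its change of -0.38 ± 0.13 (adjusted p = 0.00758, edgeR) was the smallest of the 13.

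**Figure D3:**
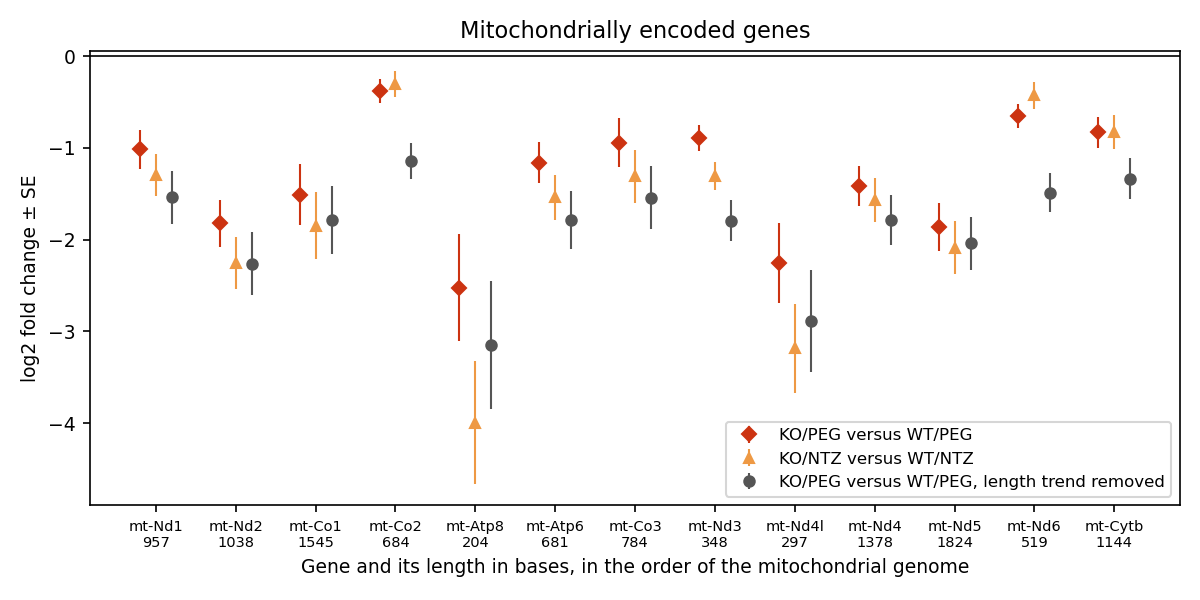
Log2 fold change ± SE of the 13 mitochondrially encoded genes in their order along the mitochondrial genome, with each gene's length in bases under its name, for KO/PEG versus WT/PEG (13 and 11 libraries), KO/NTZ versus WT/NTZ (11 and 9 libraries) and KO/PEG versus WT/PEG after removal of the length trend. All values are below 0, with mt-Atp8 at -2.52 and mt-Co2 at -0.38 in KO/PEG versus WT/PEG.

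Copies of mitochondrial DNA in the nuclear genome limit 2 of these genes. Gm29216 (chr1:24615706-24616197, minus strand), an unprocessed pseudogene, matches the last 492 bases of mt-Co1 with 6 differing bases, and all of them lie within its first bases. The stretch with the differences is shown for both, with differing bases in capitals and positions counted from 1 at the first base of mt-Co1 (chrM:6381-6413).
mt-Co1: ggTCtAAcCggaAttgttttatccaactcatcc
Gm29216: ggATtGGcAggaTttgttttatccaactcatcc
The 6 substitutions are T1056A, C1057T, A1059G, A1060G, C1062A and A1066T. The bases after them are identical, so reads from this end of mt-Co1 could be given to either name. Gm29216 held a median of 26.05% of the counts of the pair in WT/PEG (23.7% to 33.5%), 46.2% in KO/PEG (26.6% to 81.8%) and 62.4% in KO/NTZ (47.0% to 88.4%). On its own, Gm29216 was at 7509 CPM in WT/PEG and 7296 CPM in KO/PEG (medians), a log2 fold change of -0.09 ± 0.12 (adjusted p = 0.50, edgeR). With the counts of the copy added, mt-Co1 changed by -0.97 and stayed called. The difference was thus smaller for the pair than for mt-Co1 alone. For mt-Nd3, the copy Gm28438 (chr1:24612775-24613119, minus strand) differs at 1 base in 345, and held medians of 50.4% of the pair's counts in WT/PEG and 45.5% in KO/PEG. With it added, mt-Nd3 changed by -1.01.

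Of the 87 nuclear genes 84 passed the filter on low counts, while Cox6a2, Cox7b2 and Cox8c did not. In KO/PEG, 62 of the 84 were higher than in WT/PEG and 7 were lower, with a median log2 fold change of 0.65. Among all genes 37.5% were higher and 37.2% lower. In KO/NTZ compared with WT/NTZ, 62 were higher and 5 lower (median 0.72), beside 35.6% and 36.8% of all genes. In the comparison under NTZ the libraries of the groups did not overlap for 48 of the higher genes, beside 14.4% of all genes, and for Ndufs1, Uqcrc2 and Atp5b among the lower ones, beside 12.4%. In KO/PEG and WT/PEG the libraries overlapped for every higher gene, where 5.46% of all genes were higher without overlap. They did not overlap for Ndufs1, Sdha and Uqcrc2 among the lower genes, beside 8.88%. For 7 mitochondrial genes (mt-Atp8, mt-Co1, mt-Nd2, mt-Nd3, mt-Nd4, mt-Nd4l and mt-Nd5) every KO/NTZ library was below every WT/NTZ library.

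The genotype difference varied with gene length. Among all genes shorter than 700 bases, 73.8% were higher in KO/PEG and the median log2 fold change was 1.14. The 44 nuclear members in that range had a median of 0.80 and 88.6% were higher. From 700 to 1000 bases the medians were 0.83 for all genes and 0.61 for the 18 members. From 1000 to 1500 bases they were 0.60 for all genes and 0.11 for the 13 members, of which 30.8% were higher beside 67.1% of all genes. In each of these ranges the median of the members was below that of all genes. After the length trend of each library was removed, 3 nuclear members were higher in KO/PEG and 46 lower (median -0.24), beside 35.8% and 31.7% of all genes. In KO/NTZ compared with WT/NTZ, 21 were then higher and 32 lower, beside 34.5% and 33% of all genes. With the length slope as covariate, none was higher and 72 were lower in KO/PEG (median -0.73), beside 16.3% and 16.4% of all genes. In KO/NTZ compared with WT/NTZ, none was then higher and 45 were lower, beside 10.9% and 10.2% of all genes. Of the 62 members called higher with the deposited counts, 3 were called higher and 25 were called lower after the trend was removed. Of the 7 called lower, 6 were still lower. The median of the nuclear genes thus changed sign with the treatment of length.

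**Figure D4:**
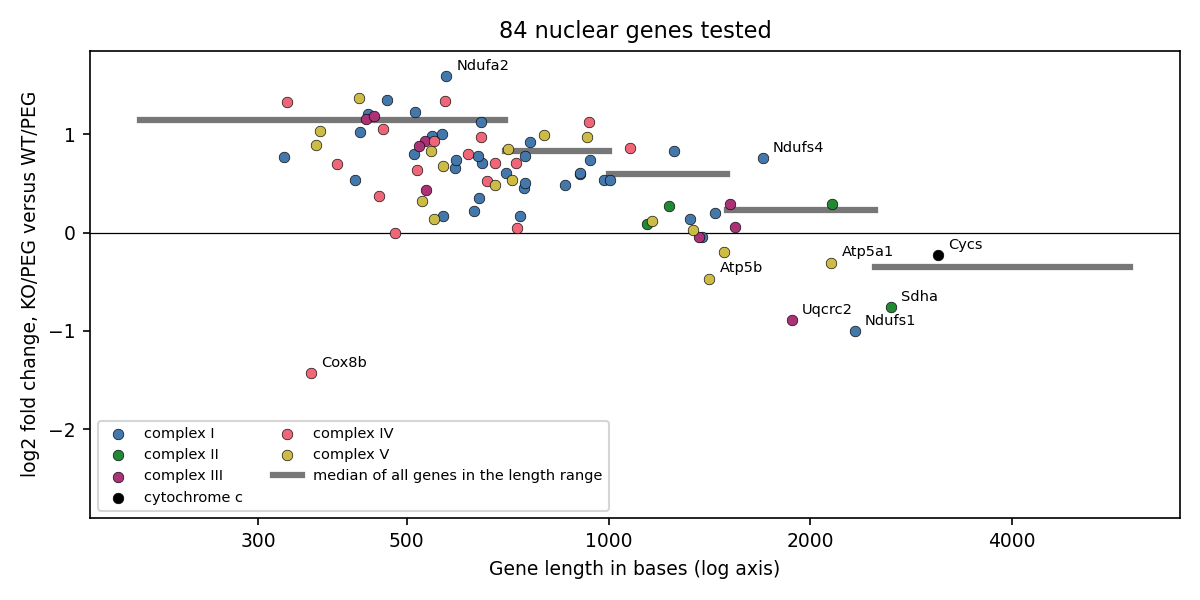
Change of the 84 nuclear genes tested, as log2 of KO/PEG over WT/PEG, against gene length in bases (log axis), coloured by complex, with grey bars at the median of all genes in each of 5 length ranges, the outer ranges being open-ended. Below 700 bases the grey bar is at 1.14, and Ndufs1, Sdha and Uqcrc2 lie below the bar of their range.

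Complex I holds more nuclear members than any other complex. Beside the counts for each complex here and below, 37.5% of all genes were higher in KO/PEG and 37.2% lower. With the length trend removed these shares were 35.8% and 31.7%. Of the 36 members of complex I, 29 were higher in KO/PEG and 1 was lower (median 0.68). After removal of the length trend 2 were higher and 20 lower (median -0.23). Ndufb8, a membrane-arm subunit and the member of this complex with the highest level per length, had medians of 219 CPM in WT/PEG (189 to 338) and 373 CPM in KO/PEG (141 to 603). Its range in KO/PEG held that of WT/PEG, with a log2 fold change of 0.74 ± 0.18 (adjusted p = 0.000308, edgeR). With the trend removed it was called lower (-0.25, adjusted p = 0.0222, edgeR). The largest increase was that of Ndufa2, an accessory subunit, from a median of 76.6 CPM (58.5 to 117.1) to 181 CPM (69.9 to 443). Its change was 1.59 ± 0.25 (adjusted p = 4.69e-07, edgeR) and was 0.55 after the trend was removed (adjusted p = 0.00243), but -0.86 with the slope as covariate (adjusted p = 0.00123, all edgeR). Ndufa7, next in size at 1.35, gave 0.26 with an adjusted p of 0.0802 (edgeR) after the trend was removed. Ndufs4, an accessory subunit near the NADH-oxidizing end, rose by 0.75 ± 0.11 (adjusted p = 1.11e-07) and by 0.43 with the trend removed (adjusted p = 1.2e-05), and gave -0.21 with the slope as covariate (adjusted p = 0.147, all edgeR). Ndufs4 was singled out after its values were seen.

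Ndufs1, the largest iron-sulphur subunit of complex I, was the exception. WT/PEG libraries ranged from 196 to 244 CPM (median 216) and WT/NTZ libraries from 150 to 243 CPM (median 199). KO/PEG libraries ranged from 67.7 to 155 CPM (median 110) and KO/NTZ libraries from 73.4 to 128.3 CPM (median 94.6). Every KO/PEG library lay below every WT/PEG library, and every KO/NTZ library below every WT/NTZ library. The change in KO/PEG was -1.003 ± 0.10 (adjusted p = 2.07e-11, edgeR), -1.07 with the trend removed and -0.42 with the slope as covariate (adjusted p = 0.0341, edgeR). As a level per length (TPM, counts per base scaled to a constant total) the groups overlapped, with medians of 115 TPM in WT/PEG and 104 TPM in KO/PEG. Ndufv1, the subunit that binds NADH, had the next lowest value, -0.04 (adjusted p = 0.734), and was called lower with the trend removed (-0.53, adjusted p = 3.08e-08, both edgeR).

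The 4 genes of complex II, which links the citric acid cycle to the chain, were unequal. Sdha, the subunit that oxidizes succinate, had medians of 387 CPM in WT/PEG (357 to 454) and 231 CPM in KO/PEG (155 to 302), with no overlap. It changed by -0.76 ± 0.10 (adjusted p = 1.34e-08, edgeR) and by -0.74 with the trend removed, but did not pass with the slope as covariate (-0.28, adjusted p = 0.201, edgeR). Sdhb, the iron-sulphur subunit, had medians of 210 and 224 CPM in WT/PEG and KO/PEG and did not pass the test (0.09 ± 0.11, adjusted p = 0.465), whereas with the trend removed it was called lower (-0.53, adjusted p = 1.1e-09, both edgeR). The membrane anchors Sdhc (0.29, the highest level per length of the complex) and Sdhd (0.27) were called higher in KO/PEG (adjusted p = 0.0108 and 0.00137, edgeR). With the trend removed Sdhc gave 0.16 (adjusted p = 0.126) and Sdhd -0.27 (adjusted p = 0.00328, edgeR).

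Of the 9 nuclear genes of complex III, 6 were higher and 1 was lower in KO/PEG (median 0.43), and 0 and 4 with the trend removed (median -0.17). Uqcr11 (1.18) and Uqcr10 (1.15), small accessory subunits, rose most, and neither passed with the trend removed (both 0.08). Uqcrh, the hinge protein and the member of this complex with the highest level per length, had medians of 321 CPM in WT/PEG (296 to 507) and 570 CPM in KO/PEG (268 to 1041). It rose by 0.93 ± 0.18 (adjusted p = 1.48e-05, edgeR), although the ranges overlapped, and did not pass with the trend removed (-0.089, adjusted p = 0.425, edgeR). Uqcrc2, a core subunit, went down instead. WT/PEG libraries had 296 to 386 CPM (median 325) and WT/NTZ libraries 249 to 357 CPM (median 315). KO/PEG libraries had 74.3 to 276 CPM (median 189) and KO/NTZ libraries 54.5 to 211 CPM (median 147.4). Neither KO group overlapped its WT control in CPM. The change of Uqcrc2 was -0.89 ± 0.18 (adjusted p = 2.67e-05, edgeR) and -1.10 with the trend removed, but 0.16 with the slope as covariate (adjusted p = 0.716, edgeR). As a level per length both pairs overlapped narrowly. WT/PEG libraries had 186.06 to 233 TPM and KO/PEG libraries 39.3 to 186.27 TPM. Under NTZ the ranges were 142.3 to 216 TPM in WT and 28.1 to 149.7 TPM in KO. Uqcrfs1, the Rieske iron-sulphur protein, had a value of -0.04 (adjusted p = 0.707) and was called lower with the trend removed (-0.53, adjusted p = 1.35e-07, both edgeR).

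Cytochrome c (Cycs), the mobile carrier between complexes III and IV, ranged from 96.7 to 139 CPM in WT/PEG (median 105) and from 78.3 to 111.1 CPM in KO/PEG (median 93.7). The ranges overlapped and the change was small (-0.23 ± 0.09, adjusted p = 0.0176, edgeR), and it did not pass with the trend removed (-0.06, adjusted p = 0.643). Cycs shares sequence with 3 other genes, of which Gm10053 alone held 161% of its mean count.

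Complex IV had 17 nuclear genes tested, of which 14 were higher and 1 lower in KO/PEG (median 0.71), and 1 and 8 with the trend removed (median -0.17). Cox4i1, the common form of subunit 4 and the member with the highest level per length, had medians of 623 CPM in WT/PEG (516 to 931) and 956 CPM in KO/PEG (386 to 1667). Its change was 0.71 ± 0.18 (adjusted p = 0.00043), and with the trend removed it was called lower (-0.23, adjusted p = 0.0216, both edgeR). Cox6a1 (1.34) and Cox7c (1.33) rose most, and neither passed with the trend removed (0.30 and 0.12, adjusted p = 0.0773 and 0.517, edgeR). Cox7c shares sequence with Gm12338 and Gm10012, which held 202% and 68.6% of its mean count, and changed by 1.09 with these added. Cox7a2l, which joins complexes III and IV into supercomplexes, rose by 0.86 ± 0.13 (adjusted p = 2.7e-07) and by 0.19 with the trend removed (adjusted p = 0.0128), but was lower with the slope as covariate (-0.34, adjusted p = 0.0271, all edgeR). It too was singled out after its values were seen. Ndufa4, now counted as a subunit of complex IV, had a change of -0.00 ± 0.14 with the deposited counts (adjusted p = 0.976, edgeR) and -1.02 with the trend removed (adjusted p = 3.66e-13, edgeR).

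Several complex IV subunits exist in a common and a tissue-restricted form. Per length, the common forms Cox4i1, Cox6a1, Cox6b1, Cox7a2, Cox7b, Cox8a and Ndufa4 had median levels between 455 and 946 TPM in WT/PEG. Cox7a1, the form of heart and skeletal muscle, was at 115 TPM, and Cox4i2, Cox6b2, Cox8b and Ndufa4l2 were between 1.36 and 3.44 TPM. Cox6a2, Cox7b2 and Cox8c had a median of 0. The common forms were thus the main ones in WT/PEG, and Cox7b2 had no count in any of the 44 libraries. Among the restricted forms, Cox6b2 (testis form) had medians of 1.39 CPM in WT/PEG and 2.62 CPM in KO/PEG and was called higher (1.06 ± 0.24, adjusted p = 0.000145). Cox4i2 (0.71, adjusted p = 0.0156), Cox7a1 (0.69, adjusted p = 0.00752) and Ndufa4l2 (1.12, adjusted p = 0.00242, all edgeR) were called higher too. None of these calls held with the trend removed. Cox6b2 then gave 0.03 (adjusted p = 0.899), Cox4i2 -0.17 (adjusted p = 0.496) and Ndufa4l2 0.30 (adjusted p = 0.363), while Cox7a1 was called lower (-0.43, adjusted p = 0.0369, all edgeR). Cox8b, the form of heart, muscle and brown fat, was called lower (-1.43 ± 0.64, adjusted p = 0.0422, edgeR), but 8 of the 13 KO/PEG libraries had no more than 3 counts of it. Its counterpart Cox8a had medians of 322 CPM in WT/PEG (216 to 493.1) and 571 CPM in KO/PEG (244 to 1025). The common forms Cox6b1 (0.80), Cox7a2 (0.53) and Cox8a (0.94) were called higher, whereas Cox7b did not pass (0.04, adjusted p = 0.711, edgeR). With the trend removed, Cox6b1 (-0.17, adjusted p = 0.0938) and Cox8a (-0.068, adjusted p = 0.50) did not pass, and Cox7a2 (-0.39, adjusted p = 2.88e-07) and Cox7b (-0.80, adjusted p = 8.95e-12, all edgeR) were called lower.

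Of the 17 nuclear genes of complex V, 11 were higher and 2 lower in KO/PEG (median 0.54), and 0 and 11 with the trend removed (median -0.32). Atp5b, the catalytic beta subunit, had the highest level per length of all nuclear members. It ranged from 1701 to 2569 CPM in WT/PEG (median 1984) and from 984 to 1875 CPM in KO/PEG (median 1418), so that the groups overlapped narrowly. Its change was -0.47 ± 0.08 (adjusted p = 4.7e-06, edgeR), -0.91 with the trend removed and -0.59 with the slope as covariate (adjusted p = 0.00263, edgeR). The order of the groups was opposite for the level per length, with medians of 1681 TPM in WT/PEG and 2205 TPM in KO/PEG, and 1711 TPM in WT/NTZ and 2221 TPM in KO/NTZ. Atp5a1, the alpha subunit that surrounds the catalytic sites with it, had medians of 1418 and 1134 CPM and changed by -0.30 ± 0.08 (adjusted p = 0.000418, edgeR), where its level per length had medians of 798 TPM in WT/PEG and 894 TPM in KO/PEG. Small subunits moved the other way with the deposited counts. Atp5e, the epsilon subunit of the central stalk, rose by 1.37 ± 0.25 (adjusted p = 5.2e-06, edgeR) and gave 0.24 with the trend removed (adjusted p = 0.182). Atp5k, a membrane subunit, rose by 1.03 ± 0.22 (adjusted p = 5.32e-05, edgeR) and gave -0.14 (adjusted p = 0.368). Atp5g2 and Atp5g1, which encode the c subunit of the ring, share sequence with pseudogenes holding 701% and 149.3% of their mean counts, and changed by 1.20 and 0.58 with these added.

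**Figure D5:**
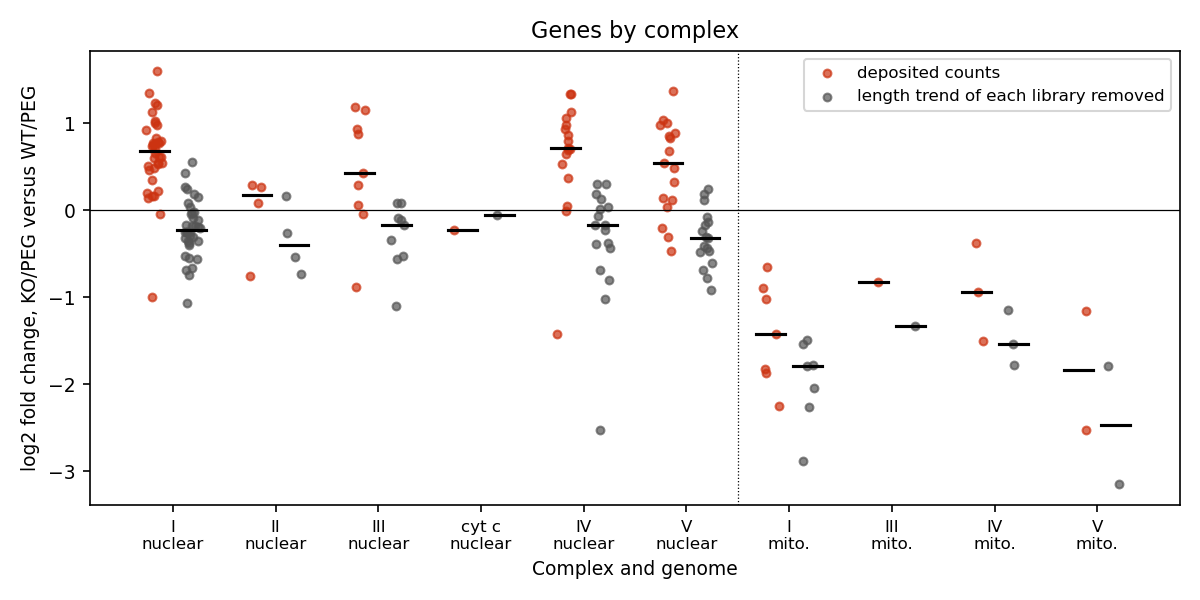
Change of each gene, as log2 of KO/PEG over WT/PEG, by complex and genome, from the deposited counts (red) and after the length trend of each library was removed (grey), with black bars at the medians. The nuclear median of complex I goes from 0.68 to -0.23, while the mitochondrial genes of complex I are lower in both (medians -1.42 and -1.79).

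No member passed the threshold for NTZ in edgeR. In KO/NTZ compared with KO/PEG, 0 of 84 nuclear and 0 of 13 mitochondrial genes passed in edgeR, where 5.56% of all genes did. At an unadjusted p under 0.05 there were 5 nuclear genes (Cycs, Ndufa1, Ndufa5 and Ndufb3 with positive and Uqcrc2 with negative values) and 2 mitochondrial genes. The latter were mt-Atp8 (-1.59 ± 0.58, adjusted p = 0.0914) and mt-Nd4l (-1.20 ± 0.43, adjusted p = 0.0890, edgeR). DESeq2 called both lower, with none of the nuclear genes, and limma-trend called no member. KO/PEG 46 is the highest KO library for both, and the KO/NTZ ranges (27.7 to 698 CPM and 32.4 to 215 CPM) lay inside those of KO/PEG, apart from the lowest mt-Atp8 values. With the length trend removed, 9 nuclear genes were higher in KO/NTZ (Atp5k, Atp5mpl, Cox5a, Cox7c, Ndufa1, Ndufa5, Ndufb10, Ndufb3 and Uqcrh, with log2 fold changes from 0.28 to 0.55) and no mitochondrial gene was called, beside 8.49% of all genes. With the slope as covariate 9 nuclear genes and 1 mitochondrial gene were called, beside 11.3% of all genes. Among the cell markers described below, 5 of 7 neuroendocrine (1 higher) and 3 of 12 parietal cell markers were lower in KO/NTZ than in KO/PEG, 3 of 6 smooth muscle markers were higher, and their part in the values of the members was not tested.

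In WT/NTZ compared with WT/PEG, 0 nuclear and 0 mitochondrial genes passed in edgeR, DESeq2 or limma-trend, beside 1.03% of all genes in edgeR. The median log2 fold changes were 0.04 and -0.01. Of the marker lists, 3 of 4 skeletal muscle markers were higher in WT/NTZ. Summed over the 9 markers of this list the medians were close, at 14.3 CPM in WT/PEG (8.56 to 19.0) and 16.3 CPM in WT/NTZ (12.5 to 232). Over all genes, limma-trend called 2 in this comparison. Ndufa4l2 was the only member with an unadjusted p under 0.05 in edgeR (0.95 ± 0.36, adjusted p = 0.326). No member passed in any of these tools when the effect of NTZ in KO mice was set against its effect in WT mice, beside 0.96% of all genes in edgeR. With the length slope as covariate in edgeR, however, 30 nuclear genes (all with a more positive effect in KO mice) and 4 mitochondrial genes (all more negative) passed for this difference, beside 9.8% of all genes. In the fit without the covariate 1 nuclear gene, again Ndufa4l2 (-1.25 ± 0.48, adjusted p = 0.241, edgeR), and no mitochondrial gene had an unadjusted p under 0.05, and DESeq2 had 1 of each kind. KO/PEG is the control of one NTZ comparison and enters the genotype comparison as well, so these values are not independent.

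The members had 357 transcripts in the deposited counts, not all of which passed the filter and were tested. Of these, 2 were called in KO/NTZ compared with KO/PEG, both lower, beside 2.56% of the 30782 transcripts tested. The first was ENSMUST00000125379 of Ndufa12 (chr10:94199037-94203538, plus strand), a transcript of 428 bases with a retained intron. WT/PEG libraries had 10.3 to 31.9 CPM of it (median 19.0) and WT/NTZ libraries 0 to 28.7 CPM (median 17.0). KO/PEG libraries had 0 to 16.5 CPM (median 4.42) and KO/NTZ libraries 0 to 2.66 CPM, with 9 of 11 at 0. The ranges of the KO groups overlapped at their lower end, and the fitted log2 difference was -4.16 ± 0.80 (adjusted p = 0.00189, edgeR). It was -4.12 by limma-trend (adjusted p = 0.000146). The coding transcript ENSMUST00000179990 had medians of 9.34 CPM in WT/PEG, 26.96 CPM in KO/PEG and 33.1 CPM in KO/NTZ. Summed over transcripts, Ndufa12, an accessory subunit of complex I, had medians of 28.5 CPM with vehicle and 28.6 CPM with NTZ in WT mice and of 35.3 CPM and 36.6 CPM in KO mice, and did not pass in KO/PEG versus WT/PEG (0.16 ± 0.11, adjusted p = 0.169, edgeR). With the length trend removed, Ndufa12 was called lower in KO/PEG. The processed pseudogene Gm15920 held 258% of the mean count of Ndufa12. With Gm15920 added to the deposited counts the change was 0.42 (adjusted p = 0.00109, edgeR). The other transcript was ENSMUST00000194047 of Uqcrc1 (580 bases), a core subunit gene of complex III. It had medians of 13.9 and 15.3 CPM in WT/PEG and WT/NTZ and was at 0 in 11 of 13 KO/PEG and 10 of 11 KO/NTZ libraries. With both KO groups near 0 no fold is given, and limma-trend did not call it (adjusted p = 0.498). Reads that fit several transcripts are apportioned by kallisto, which makes a single transcript's value less certain than the gene's sum.

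Genes that build and serve the chain were counted from lists in the same comparison of KO/PEG with WT/PEG. Beside these counts, 37.5% of all genes were higher and 37.2% lower, and 35.8% and 31.7% with the length trend removed. Of 78 genes of the mitochondrial ribosome, 71 were higher and 1 lower (median 0.68), and of 94 cytosolic ribosomal protein genes 88 were higher and 5 lower (median 1.30). These lists also consist of short genes, with median lengths of 1133 and 711 bases. Of all genes from 1000 to 1500 bases 67.1% were higher (median 0.60), and from 700 to 1000 bases 75.2% (median 0.83). With the length trend removed, 34 mitochondrial ribosome genes were higher and 18 lower (median 0.09), and 76 cytosolic ribosomal protein genes were higher and 5 lower (median 0.48). The assembly factors of complex I (6 of 18 higher, 4 lower, median 0.10) and of complexes II to V (18 of 35 higher, 6 lower, median 0.21) were mixed. So were the genes of mitochondrial DNA maintenance and transcription (5 of 14 higher, 5 lower, median -0.05) and of coenzyme Q synthesis (4 of 13 higher, 2 lower, median 0.04). The carriers, porins and cristae genes (5 of 18 higher, 9 lower, median -0.21) and the genes of mitochondrial RNA processing (4 of 15 higher, 9 lower, median -0.32) had negative medians. With the trend removed, 13 of the 18 complex I assembly factors were lower and 0 higher, 6 of those of complexes II to V were higher and 16 lower, and 1 of the carriers, porins and cristae genes was higher and 13 lower. For mitochondrial DNA maintenance these counts were 4 and 7, for RNA processing 2 and 7 and for coenzyme Q synthesis 3 and 8. Among the regulators of mitochondrial biogenesis 1 of 10 was higher and 6 lower (median -0.92). These are long genes (median length 4053 bases), and of all genes over 2500 bases 55.1% were lower. With the trend removed 2 were higher and 5 lower (median -0.40). Ppargc1a, a coactivator of mitochondrial genes, went from a median of 25.9 CPM in WT/PEG to 4.52 CPM in KO/PEG (-2.48 ± 0.20). Ppargc1b (-1.32 ± 0.12) and the nuclear receptor Esrrg (-2.87 ± 0.31) were lower too, the last of which is also on the parietal cell list. The 3 genes were lower with the trend removed too (-1.88, -1.01 and -2.40).

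Cell markers differed in the same comparison. The shares of all genes were 37.5% higher and 37.2% lower, and 35.8% and 31.7% with the length trend removed. All 12 parietal cell markers were tested and 11 were lower (median -1.71), Atp4b included. Their summed level was 11449 to 18400 CPM (WT/PEG) and 7508 to 18670 CPM (WT/NTZ) against 2679 to 8795 CPM (KO/PEG) and 2681 to 5980 CPM (KO/NTZ), and none was at 0 in every library of a group. Chief cell markers (3 of 4 lower, 1 higher, median -1.80) and surface pit cell markers (3 of 4 lower, none higher, median -1.31) differed as well. All 7 mucous neck and SPEM markers were higher (median 3.87), with a summed level of 1817 to 2717 CPM in WT/PEG and 7019 to 63519 CPM in KO/PEG. Smooth muscle markers were lower (6 of 6, median -0.69), immune markers higher (5 of 7, median 1.06) and neuroendocrine markers mostly higher (5 of 7 higher, 1 lower, median 1.14). Pericyte (2 of 7 higher, 4 lower), adipocyte (1 of 6 higher, 2 lower), squamous (1 of 8 higher, 1 lower) and skeletal muscle markers (0 of 4) were mixed or not called. With the length trend removed the counts of parietal (11 lower), chief (3 lower, 1 higher), mucous neck and SPEM (6 higher), surface pit (4 lower), smooth muscle (5 lower), immune (4 higher) and neuroendocrine markers (4 higher, 2 lower) had the same leading direction. In KO/NTZ compared with WT/NTZ, 11 parietal markers were again lower, beside 36.8% of all genes. So were 5 of 8 squamous (1 higher) and 3 of 4 skeletal muscle markers, but WT/NTZ libraries varied widely in both lists. Summed squamous markers ranged from 33.8 to 3813 CPM in WT/NTZ (median 927) and from 358 to 1908 CPM in KO/NTZ (median 693). The 9 skeletal muscle markers summed to 12.5 to 232 CPM in WT/NTZ (median 16.3) and 12.9 to 34.8 CPM in KO/NTZ (median 24.5). The median of this sum was thus not lower in KO/NTZ. Within a genotype the mitochondrial share did not pass a correlation with the summed parietal markers. In KO libraries r was -0.01 and rho 0.11 (permutation test, adjusted p = 0.98 and 0.59, raw p the same, n = 24; r = -0.01 without the 2 farthest libraries). In WT libraries r was 0.37 and rho 0.39 (permutation test, adjusted p = 0.132 and 0.109, raw p = 0.11 and 0.091, n = 20; r = 0.18 without the 2 farthest). Within the vehicle groups r was -0.00 for WT and -0.29 for KO libraries, and within the NTZ groups 0.67 and 0.76. The part of cell makeup in the genotype differences was not tested.

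Promoters from RefSeq (GRCm38.p6, 250 bases before to 50 after each gene's start) were matched by symbol for 68 of the 87 nuclear members and searched on both strands for 4 motifs. GCGCANGCG, a site of NRF1, was found in 21 of 68 member promoters (30.9%) and 7.03% of 27025 genes. CCGGAAG, the core of ETS factors such as GABP, was in 16 (23.5%) beside 9.93%, and AANATGGCG, a site of YY1, in 10 (14.7%) beside 2.76%. TNAAGGTCA, a site of the estrogen-related receptors, was in 3 (4.41%, Atp5g3, Ndufb4 and Sdhd) beside 1.43%. For NRF1 the median log2 fold changes in KO/PEG were 0.71 with the motif (21 genes) and 0.69 without (46 genes). They were 0.81 and 0.68 for ETS, 0.72 and 0.70 for YY1, and 0.54 (3 genes) and 0.70 for the estrogen-related receptors. With the length trend removed the medians were -0.25 and -0.20 for NRF1, -0.17 and -0.25 for ETS, and -0.24 and -0.20 for YY1. For the estrogen-related receptors they were then -0.27 and -0.20. These differences were not tested. The promoters of 4 members called the same way with the deposited counts and with the length trend removed are shown, Sdha and Atp5b among the lower and Ndufs4 and Cox7a2l among the higher, with motif matches in capitals. Sdha (chr13:74350191-74350490, minus strand) holds 3 NRF1 matches, Atp5b (chr10:128083057-128083356, plus strand) and Ndufs4 (chr13:114388045-114388344, minus strand) 1 YY1 match each, and Cox7a2l (chr17:83514284-83514583, minus strand) none.
Sdha: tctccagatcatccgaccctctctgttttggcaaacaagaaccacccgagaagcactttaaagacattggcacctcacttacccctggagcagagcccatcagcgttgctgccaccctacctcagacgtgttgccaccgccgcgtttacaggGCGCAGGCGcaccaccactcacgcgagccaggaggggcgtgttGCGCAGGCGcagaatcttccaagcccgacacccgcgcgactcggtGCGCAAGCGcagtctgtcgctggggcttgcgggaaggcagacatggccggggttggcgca
Atp5b: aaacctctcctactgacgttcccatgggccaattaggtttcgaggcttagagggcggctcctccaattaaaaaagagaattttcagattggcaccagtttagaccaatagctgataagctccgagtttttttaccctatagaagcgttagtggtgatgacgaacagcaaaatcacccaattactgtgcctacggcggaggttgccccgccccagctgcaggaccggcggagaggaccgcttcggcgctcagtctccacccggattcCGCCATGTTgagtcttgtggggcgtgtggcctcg
Ndufs4: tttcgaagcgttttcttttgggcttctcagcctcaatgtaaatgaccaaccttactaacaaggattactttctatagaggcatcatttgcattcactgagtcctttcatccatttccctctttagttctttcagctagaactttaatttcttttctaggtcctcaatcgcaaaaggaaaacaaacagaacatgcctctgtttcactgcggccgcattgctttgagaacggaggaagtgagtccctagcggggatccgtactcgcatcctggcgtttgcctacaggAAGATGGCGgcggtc
Cox7a2l: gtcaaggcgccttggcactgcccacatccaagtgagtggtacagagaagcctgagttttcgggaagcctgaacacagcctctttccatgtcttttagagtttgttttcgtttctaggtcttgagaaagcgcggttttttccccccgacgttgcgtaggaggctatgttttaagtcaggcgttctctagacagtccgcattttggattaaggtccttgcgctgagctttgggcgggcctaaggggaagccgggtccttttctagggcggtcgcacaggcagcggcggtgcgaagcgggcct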

How the data were processed

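RNA of 44 gastric corpus samples was sequenced with a stranded mRNA kit. The authors quantified reads with kallisto 0.42.4 against GRCm38 (per the submitters' processing notes) and deposited estimated counts per transcript, not normalized. These counts were rounded to whole numbers and summed per gene name of GENCODE vM21, which paired 92372 of 94080 transcripts. The unpaired transcripts held 0.329% to 1.30% of the counts of a library. Groups came from the labels. Genes were filtered with filterByExpr (minimum count 10, total 15), and 14901 were tested in 1 fit of 4 group means with TMM normalization and the quasi-likelihood test of edgeR 4.0.16 in R 4.3.3, with Benjamini-Hochberg adjustment over all genes tested. Levels per length (TPM) were computed from the counts. To remove the length trend, a lowess curve (span 0.3) of log2 deviation on log10 gene length was fitted to each library and used as offset. Copies were genes sharing at least 30% of their 31-base words with a member. Alternatives used DESeq2 1.42.0 and limma 3.58.1. The tests were tried on simulated data.

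The members and lists were chosen with earlier results of these data known. The genes named were all mitochondrial genes, per complex the nuclear gene with the highest level per length and the 2 lowest and 2 highest changes in KO/PEG versus WT/PEG, restricted paralogues with their counterparts, complex II, cytochrome c, and Ndufa12 by transcript. Ndufs4 and Cox7a2l, chosen after their values were seen, are marked where named. Further members are named for shared sequence, for a call or an unadjusted p under 0.05 in the NTZ comparisons, or for promoter motifs. Of other lists up to 3 genes with the smallest p could be named. Removal of the length trend (members and lists), addition of copies and the fit without KO/PEG 46 were chosen after seeing the data.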

Additional observations from a re-analysis of the deposited data

Results flagged for a closer look

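The libraries of WT/NTZ, the only group with 10 or fewer, were checked for a lone extreme library in 53 measures, where chance marks about 1 in 20. In 3 of them, 1 library stood apart by more than 0.493 of the group's range. Cox8b was at 9.55 CPM in 1 WT/NTZ library, with the next library at 2.74 CPM. Ndufa2 was at 65.1 CPM in WT/NTZ 98, below the next value of 80.2 CPM. Cox8c was at 0.0929 CPM in WT/NTZ 99 and at 0 in the other WT/NTZ libraries, which lies under the level of 3 counts.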

How the results depend on the processing

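The length dependence of the libraries decided more than any other choice. With the length slope as covariate, 0 nuclear genes were higher and 72 lower in KO/PEG versus WT/PEG, and 0 mitochondrial genes were lower. Beside these, 16.3% of all genes were higher and 16.4% lower. In KO/NTZ versus WT/NTZ, 0 nuclear genes were higher and 45 lower and 1 mitochondrial gene was called, beside 10.9% and 10.2% of all genes. The same fit called 9 nuclear genes and 1 mitochondrial gene in KO/NTZ versus KO/PEG (11.3% of all genes). For the difference of the NTZ effects it called 30 nuclear and 4 mitochondrial genes (9.8% of all genes). With the length trend removed, an alternative chosen after seeing the data, 3 nuclear genes were higher and 46 lower in KO/PEG versus WT/PEG. Beside these, 35.8% of all genes were higher and 31.7% lower. In KO/NTZ versus WT/NTZ 21 nuclear genes were higher and 32 lower, beside 34.5% and 33% of all genes. In KO/NTZ versus KO/PEG 9 nuclear genes were called, beside 8.49% of all genes. Single genes whose difference between KO/PEG and WT/PEG (log2) changed sign under the covariate were Atp5e -1.03, Atp5k -1.09, Cox4i1 -0.95, Cox4i2 -0.99, Cox6a1 -1.03, Cox6b1 -0.89, Cox6b2 -0.54, Cox7a1 -0.83, Cox7a2 -0.72, Cox7a2l -0.34, Cox7b -0.66, Cox7c -1.01, Cox8a -0.73, Ndufa2 -0.86, Ndufa4l2 -0.90, Ndufa7 -0.74, Ndufb8 -0.94, Ndufs4 -0.21, Sdhb -0.78, Sdhc -0.60, Uqcr10 -0.44, Uqcr11 -0.99, Uqcrc2 0.16, Uqcrh -0.78, mt-Atp6 0.47, mt-Atp8 1.20, mt-Co1 1.11, mt-Co2 0.14, mt-Co3 1.04, mt-Cytb 0.25, mt-Nd1 0.64, mt-Nd2 0.14, mt-Nd4 0.21, mt-Nd4l 1.05 and mt-Nd5 0.18. Those that changed sign with the trend removed were Atp5k -0.14, Cox4i1 -0.23, Cox4i2 -0.17, Cox6b1 -0.17, Cox7a1 -0.43, Cox7a2 -0.39, Cox7b -0.80, Cox8a -0.068, Ndufa12 -0.75, Ndufb8 -0.25, Sdhb -0.53, Sdhd -0.27 and Uqcrh -0.089. Within animals in 1 range of numbers (7 KO/PEG and 11 WT/PEG libraries), 4 rather than 7 nuclear genes were lower in KO/PEG. Of all 14056 genes tested there, 5367 were lower. In WT/NTZ versus WT/PEG, with 4 WT/NTZ and 11 WT/PEG libraries, 1 nuclear gene (Ndufa4l2) was called. Of all 14371 genes tested there, 598 were higher and 294 lower. DESeq2 called 2 mitochondrial genes in KO/NTZ versus KO/PEG, and limma-trend called 1 of the 2 transcripts. The fits without a filter, with DESeq2's size factors, with copies added, without KO/PEG 46, without the libraries whose animal number recurs across KO groups and with the pair of like-numbered WT/PEG libraries summed kept all gene counts within 1.5 times. Beyond the length dependence built into these settings, the cause was not tested. No paired analysis was possible because the groups compared share fewer than 2 numbers. Depth limits Cox6a2, Cox7b2, Cox8b, Cox8c and the other restricted forms, and genotype cannot be told apart from the length dependence.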
